A study of Mus musculus with 15 samples.

Results

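The genes described here encode the desaturases and elongases that reshape fatty acid chains after synthesis, with Srebf1, the gene for the lipogenic regulator SREBP-1, and Acly, whose enzyme supplies acetyl-CoA. They were chosen by symbol: Scd1, Scd2, Fads1, Fads2, Fads3, Elovl1, Elovl5, Elovl6, Srebf1 and Acly. They are 10 of the 13676 genes named in the authors' normalized value table and had 14 of its 25784 probes. Of the 14 probes, 13 were above background on at least 3 arrays and were tested, as were 24195 probes in all. The remaining probe, a second one for Fads2 (ILMN_2519802), was above background on 2 of 15 arrays and is given only as values.

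The arrays held RNA of cultured mouse peritoneal macrophages, drawn into the abdominal cavity with 3% thioglycollate and then cultured at 0.5% serum and 5.5 mM glucose. All 4 groups share this elicitation and culture. Unstimulated cells (Unstim, neither fatty acid nor LPS) gave 3 arrays, from experiments 1, 3 and 4. The other groups, with 4 arrays each from experiments 1 to 4, were fatty acid-loaded macrophages (FA), macrophages given the Toll-like receptor 4 ligand lipopolysaccharide at 10 ng/ml for 24 h (LPS), and loaded macrophages given the same LPS (FA+LPS). Cells not given LPS received vehicle for the same 24 h. The fatty acid, the strain and age of the mice and the number of mice per experiment are not stated in the labels, so p-values measure the spread between these experiments only. The question the series' title sets is how Toll-like receptor agonists bear on triglyceride retention in macrophages.

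Stearoyl-CoA desaturases, Scd1 and Scd2 in mouse macrophages, place the first double bond into saturated acyl chains and so make the monounsaturated chains that triglycerides and cholesteryl esters readily take up. Fads1 and Fads2 encode the front-end desaturases that add double bonds to polyunsaturated chains, and the Elovl genes encode the condensing enzymes that lengthen chains in the endoplasmic reticulum. SREBP-1 is held in that membrane as a precursor and is processed to a transcription factor for lipogenic genes. Polyunsaturated fatty acids are known to restrain that processing, and liver X receptors are known to drive Srebf1 and Scd1 transcription.

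RefSeq promoter windows (mouse build GRCm38.p6, 250 bases before to 50 after a start site) were found for 7 of the 10 genes, 10 windows in all. No window was found for Scd1, Scd2 or Fads1, so their promoters were not searched. Srebf1 and Elovl1 had more than 1 window each. One window each is shown for the elongases Elovl1, Elovl5 and Elovl6, each of which had a probe lower with LPS, with every CCAAT (the letters NF-Y binds, a partner of SREBP at many lipogenic promoters) in capitals, or ATTGG where it lies on the opposite strand.
Elovl1, chr4:118427843-118428142, + strand: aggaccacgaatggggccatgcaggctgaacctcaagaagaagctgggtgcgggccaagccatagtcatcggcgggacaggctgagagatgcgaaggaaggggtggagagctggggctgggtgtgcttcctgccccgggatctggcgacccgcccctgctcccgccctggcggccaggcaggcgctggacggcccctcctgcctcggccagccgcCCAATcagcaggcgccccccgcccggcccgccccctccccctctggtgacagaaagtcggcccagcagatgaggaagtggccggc
Elovl5, chr9:77917115-77917414, + strand: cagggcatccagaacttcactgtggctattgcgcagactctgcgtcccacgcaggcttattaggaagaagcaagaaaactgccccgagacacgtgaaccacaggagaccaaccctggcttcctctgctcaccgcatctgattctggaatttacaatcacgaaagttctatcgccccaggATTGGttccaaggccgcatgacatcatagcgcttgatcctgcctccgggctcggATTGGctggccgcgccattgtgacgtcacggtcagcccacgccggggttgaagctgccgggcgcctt
Elovl6, chr3:129532136-129532435, + strand: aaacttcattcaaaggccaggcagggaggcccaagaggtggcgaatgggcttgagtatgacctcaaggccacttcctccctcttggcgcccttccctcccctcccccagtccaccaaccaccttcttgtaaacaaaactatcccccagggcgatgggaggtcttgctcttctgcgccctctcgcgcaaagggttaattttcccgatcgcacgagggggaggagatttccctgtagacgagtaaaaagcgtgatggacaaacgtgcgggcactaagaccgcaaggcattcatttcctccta
The Elovl1 window shown held CCAAT once, at -35 from the start site, and the second Elovl1 window in the table, not shown, held neither spelling. The Elovl5 window held ATTGG at -71 and at -17, and the Elovl6 window held neither. Over all 10 windows, 6 windows of 5 genes held CCAAT on either strand, and so did 37.4% of the 32851 promoters of the same length in the table. The sterol response element spelling TCACNCCAC, searched on both strands, was in 0 of the 10 windows and in 1.24% of all promoters. The LXR response element, AGGTCA repeated after any 4 bases, was in 0 of the 10 windows and in 0.0152% of all. A match or its absence concerns only these letters in these windows.

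Signals are log2 values after background correction and quantile normalization. The 19497 probes left out of the authors' value table served as a measure of background, taken on each array at their 95th percentile. FA replicate 1 stood apart: the 95th percentile of its deposited log2 signals was 7.77 against 8.53 to 9.57 on the other 14 arrays, and 15781 of its probes were above background against 17970 to 18998. Within experiment 4, the deviations of the 3 treated arrays from their group means correlated with each other at 0.34 to 0.70, but with those of Unstim replicate 4 at -0.01 to 0.06. In experiments 1 and 3 the unstimulated array correlated with the treated arrays of its experiment at 0.02 to 0.22. The 2 closest arrays of 1 group, Unstim replicates 3 and 4, correlated at 0.993 with a median absolute difference of 0.10 on the log2 scale, so no 2 arrays of 1 group were copies.

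Markers of other cells were read on the same arrays. Of 8 macrophage genes in the table, 7 or 8 were above background on every array of each group, and their summed linear signal was 25623 to 28227 in unstimulated cells, 25050 to 28019 with FA, 19299 to 26311 with LPS and 21458 to 35302 with FA+LPS. With LPS against unstimulated cells, 3 of these rose and 3 fell, where 8.62% of all genes rose and 12.8% fell. Lyz2 was the brightest of them, 7.76 to 8.90 above background by its brightest probe. The 5 neutrophil genes summed to 303 to 421, 342 to 414, 578 to 1003 and 1029 to 1927 in the same order of groups. The sum followed S100a8, which lay 1.33 to 5.59 above background, while the other neutrophil genes were at most 0.69 above it. In the LPS comparison 2 of the neutrophil genes rose, Camp and S100a8 (by 1.09 ± 0.22), and 1, Ltf, fell. S100a8 rose further with FA+LPS against LPS (1.11), while Camp was above background on no unstimulated array. The 7 mesothelial and fibroblast genes summed to 157 to 175, 140 to 172, 448 to 689 and 379 to 789. Their sum followed Dcn, the only called member (2.26 ± 0.23 with LPS), while the mesothelial marker Msln was at most 0.05 above background on any array. Of the 4 B cell genes, summed at 104 to 134, 116 to 124, 70.2 to 96.4 and 72.8 to 102, 3 were tested and 1, Cd22, fell with LPS. The 2 adipocyte genes, Adipoq and Lep, summed to 46.2 to 51.3, 39.5 to 53.9, 37.6 to 42.4 and 33.3 to 44.5, neither was called in any comparison, and Adipoq was at most 0.07 above background. No marker gene was called with FA alone, where 0.00770% of all genes were. The part of other cells in the results that follow was not tested. In bulk RNA, fewer cells of a type and less RNA per cell cannot be told apart.

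**Figure D1:**
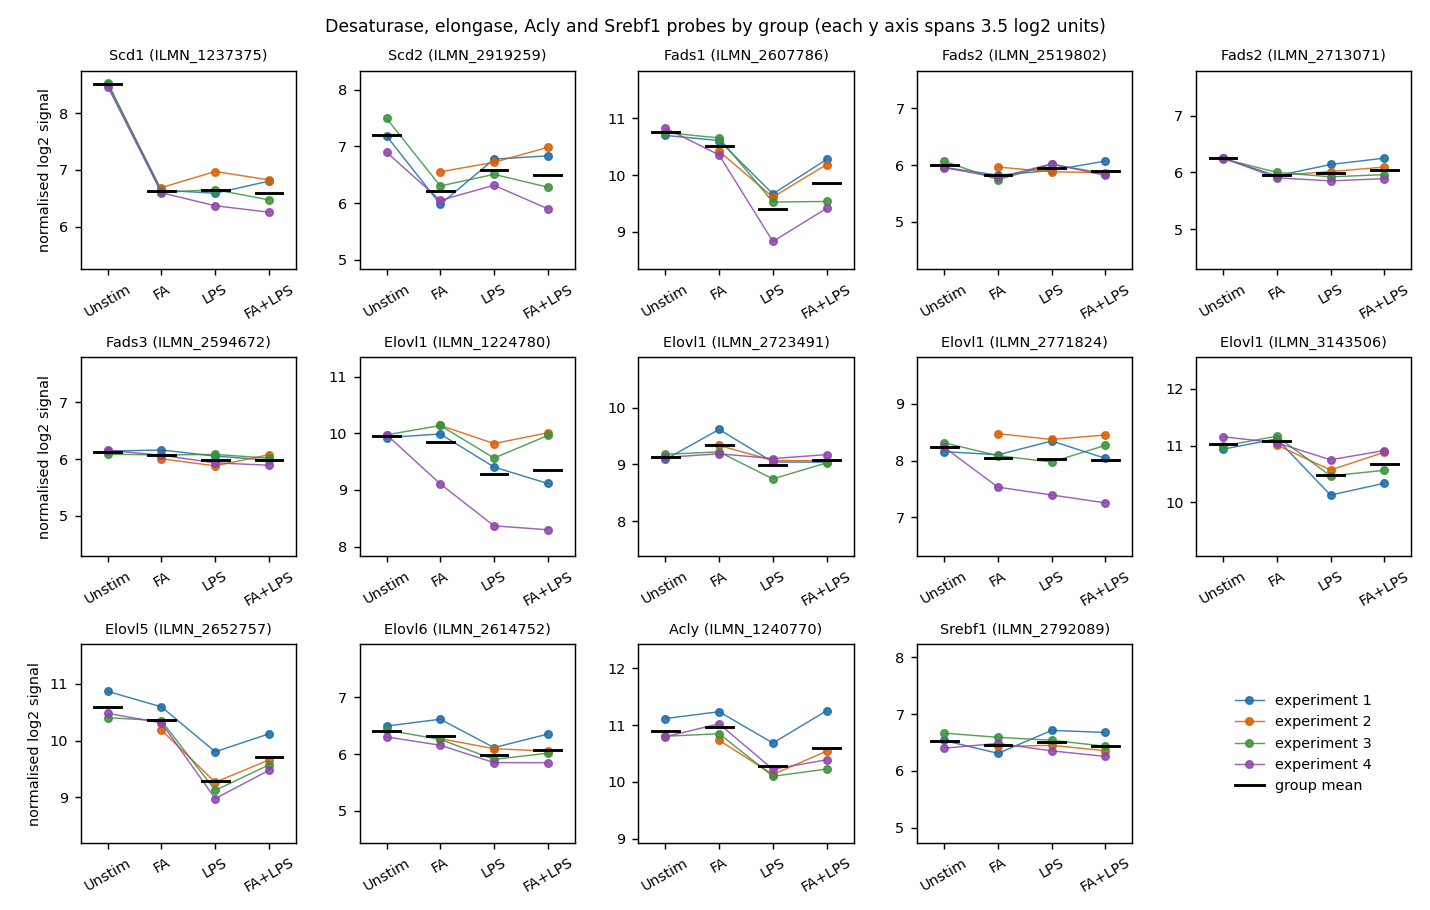
Normalized log2 signal (y axis, each panel spanning 3.5 log2 units) of the 14 probes in the 4 groups (x axis), 1 point per array, lines joining arrays of 1 experiment, black bars for group means. The Scd1 points lie between 8.47 and 8.54 in unstimulated cells and between 6.25 and 6.97 on the 12 treated arrays, while the Fads1 and Elovl5 points are lowest with LPS.

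Scd1, a stearoyl-CoA desaturase, was lower in all 3 treated groups by nearly the same amount. Its normalized log2 signal (ILMN_1237375) was 8.52, 8.54 and 8.47 in unstimulated experiments 1, 3 and 4. In experiments 1 to 4 it was 6.64, 6.69, 6.61 and 6.60 with FA. With LPS it was 6.59, 6.97, 6.65 and 6.37, and with FA+LPS 6.80, 6.82, 6.47 and 6.25. Every treated array lay below every unstimulated one, and the 3 treated groups overlapped each other. After normalization the FA arrays varied least among the treated groups (SD 0.04, against 0.25 with LPS and 0.27 with FA+LPS). On the deposited scale they did not, the SD of the distance to background being 0.274 with FA, 0.270 with LPS and 0.409 with FA+LPS.

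Against unstimulated cells, Scd1 fell by 1.88 ± 0.14 on the log2 scale with FA (SE, n = 4 against 3, 3.67-fold lower, limma adjusted p = 3.55e-05). It was the 1 probe of 24195 called in that comparison, 0.00413% of those tested, and the 3 experiments with both arrays gave -1.88, -1.93 and -1.87. With LPS it fell by 1.86 ± 0.14 (3.64-fold, limma adjusted p = 2.06e-07), and with FA+LPS it fell by 1.92 ± 0.14 (3.79-fold, limma adjusted p = 1.75e-07). The 3 calls held in each of the 25 alternative settings run, among them the fit with experiment as a block. The size depended on the setting, ranging from -2.34 to -1.86 with FA, -2.33 to -1.77 with LPS and -2.43 to -1.78 with FA+LPS. The folds given are therefore those of the main setting. Within slide 1 the FA difference was -1.90 and the LPS difference -1.93, and within slide 3 they were -1.90 and -1.85. Slides were read from the array names, and slide 2 held no unstimulated array. The only unstimulated and LPS arrays of slide 1 were those of experiment 1. Its LPS difference is thus that of experiment 1 for every probe, not a separate reading. Experiment 4 was spread over slides 1, 2 and 3.

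When both treatments were given, Scd1 did not pass the test against either treatment alone. FA+LPS minus FA was -0.04 ± 0.13 (95% interval -0.32 to 0.23, limma adjusted p = 0.888), and FA+LPS minus LPS was -0.06 ± 0.13 (95% interval -0.33 to 0.22, limma adjusted p = 1.00). A further difference within these intervals was not detectable with these arrays. The interaction (the FA+LPS minus LPS difference, less the FA minus Unstim difference) was 1.82 ± 0.19 (95% interval 1.42 to 2.22, limma adjusted p = 0.00290), the smallest p of all probes tested. It was above 0 in the 3 experiments that have all 4 groups (1.76 to 2.09). Under median scaling the value was 1.85 and the call was lost (adjusted p = 0.689).

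In all 3 treated groups Scd1 was read close to background. On the deposited log2 scale the signal lay above background by 2.51, 2.97 and 2.34 in unstimulated experiments 1, 3 and 4. With FA it lay above by 0.21, 0.83, 0.63 and 0.74 in experiments 1 to 4, the lowest being the dim array, FA replicate 1. With LPS the distances were 0.56, 1.08, 0.66 and 0.47, and with FA+LPS 1.10, 0.94, 0.39 and 0.27. Scd1 was thus above background on all 15 arrays, but every treated array was within 1.10 log2 units of it. After normalization the distance averaged 2.48 in unstimulated cells (2.43 to 2.51) and 0.59 ± 0.20 on the 12 treated arrays (SD, 0.23 to 0.94). The separate FA and LPS differences sum to -3.74, which is larger in size than the whole normalized distance of the unstimulated cells to background, and the measured FA+LPS difference was -1.92. What part the nearness of background has in the interaction was not tested.

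**Figure D2:**
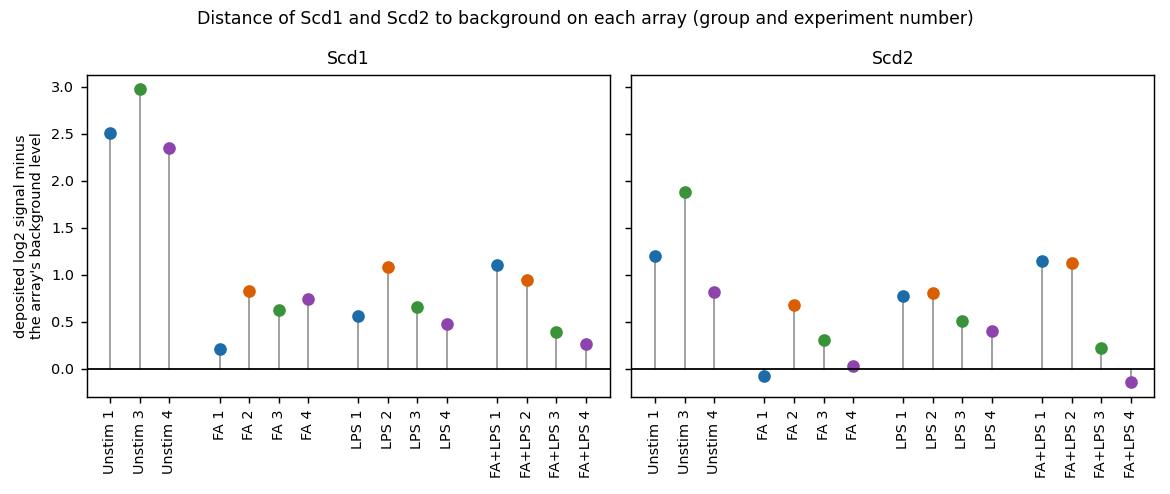
Deposited log2 signal minus the array's own background level (y axis) for Scd1 and Scd2 on each of the 15 arrays (x axis, group and experiment number, colours for experiments). Scd1 lies 2.34 to 2.97 above background in unstimulated cells and 0.21 to 1.10 above it on treated arrays, and Scd2 lies below it on FA replicate 1 and FA+LPS replicate 4.

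Scd2, the other stearoyl-CoA desaturase among the members, lay lower in the treated groups without passing the test. Its log2 signal (ILMN_2919259, above background on 13 of 15 arrays) was 7.19, 7.49 and 6.90 in unstimulated experiments 1, 3 and 4. With FA it was 5.98, 6.55, 6.30 and 6.05 in experiments 1 to 4. With LPS it was 6.78, 6.72, 6.51 and 6.31, and with FA+LPS 6.83, 6.98, 6.28 and 5.90. The FA and LPS arrays all lay below the unstimulated ones, while FA+LPS overlapped them. The FA difference of -0.97 ± 0.23 (lower in 3 of 3 experiments) ranked 13 of 24195 by p, but its limma adjusted p was 1.00. The LPS difference was -0.61 ± 0.23 (limma adjusted p = 0.0895) and the FA+LPS difference -0.69 ± 0.23 (limma adjusted p = 0.0607). With experiment as a block both were called, at -0.72 (adjusted p = 0.00503) and -0.80 (adjusted p = 0.00288), and both remained so when Unstim replicate 4 was also left out (adjusted p = 0.0163 and 0.0109). The interaction was 0.89 ± 0.32 (limma adjusted p = 0.911). Among treated arrays the lowest values were again close to background.

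Fads1, the front-end desaturase that acts late in the synthesis of arachidonic and eicosapentaenoic acid, was lower in both groups given LPS. Its log2 signal (ILMN_2607786) was 10.70, 10.75 and 10.83 in unstimulated experiments 1, 3 and 4. With FA it was 10.61, 10.42, 10.66 and 10.36 in experiments 1 to 4. With LPS it was 9.67, 9.62, 9.53 and 8.83, and with FA+LPS 10.28, 10.19, 9.54 and 9.42. All LPS and FA+LPS arrays lay below all arrays without LPS, and the LPS and FA+LPS groups overlapped. The FA arrays in turn lay below the unstimulated ones, by less. It was at least 3.18 log2 units above background on every array.

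With LPS, Fads1 fell by 1.35 ± 0.22 (2.55-fold, limma adjusted p = 0.000387, lower in 3 of 3 experiments), and with FA+LPS by 0.91 ± 0.22 against unstimulated cells (limma adjusted p = 0.00953). With median scaling neither call was made, at -1.05 (adjusted p = 0.165) and -0.55 (adjusted p = 0.625). Between FA+LPS and FA it fell by 0.66 ± 0.20 (limma adjusted p = 0.0374, lower in 4 of 4 experiments), a call lost in 9 of the 25 alternatives. Median scaling left -0.11 (adjusted p = 0.927). The slide block ended the call too (-0.59, adjusted p = 0.0654), and so did leaving out FA replicate 1 (-0.62, adjusted p = 0.0915), FA+LPS replicate 4 (adjusted p = 0.117) or FA+LPS replicate 3 (adjusted p = 0.115). FA alone measured -0.25 ± 0.22 (95% interval -0.72 to 0.22, limma adjusted p = 1.00). FA+LPS minus LPS was 0.44 ± 0.20 (95% interval 0.01 to 0.88, limma adjusted p = 0.569), with 0.61, 0.57, 0.01 and 0.58 in experiments 1 to 4. The interaction of 0.69 ± 0.30 was not called (limma adjusted p = 1.00). Within slides 1 and 3 the LPS difference was -1.03 and -1.26. That of FA+LPS against FA was -0.20, -0.62 and -1.12 within slides 1, 2 and 3, the last being that of experiment 3.

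Fads2, which encodes the desaturase that starts the polyunsaturated pathway, was read near background. The tested probe (ILMN_2713071) was above background on 6 of 15 arrays. It measured 6.25, 6.24 and 6.26 in unstimulated experiments 1, 3 and 4. With FA it measured 5.94, 5.95, 6.00 and 5.91 in experiments 1 to 4, below background on all 4 arrays. With LPS it measured 6.14, 6.02, 5.92 and 5.85, 1 array being above background, and with FA+LPS 6.25, 6.09, 5.96 and 5.89, 2 being above. The unstimulated arrays agreed within 0.02 log2 units and lay above all FA and LPS arrays. The LPS difference of -0.27 ± 0.08 was called (limma adjusted p = 0.0395, lower in 3 of 3 experiments), but not in 10 of the 25 alternatives, among them slide as a block (adjusted p = 0.0771), median scaling (adjusted p = 0.136) and leaving out any of the 3 unstimulated arrays (adjusted p = 0.0967 to 0.110), any of the 4 LPS arrays but the first, or FA replicate 2 (adjusted p = 0.0529). For FA, the mean of unstimulated cells lay 1.16-fold above the background level of the FA arrays, a value given without an interval. The fitted difference of -0.30 ± 0.08 was not called (limma adjusted p = 1.00). The other Fads2 probe ranged from 5.74 to 6.07 over the 15 arrays. Fads3, a desaturase acting on sphingoid bases and trans-vaccenic acid, ranged from 5.88 to 6.16 (9 of 15 arrays above background) and was not called in any comparison. Its differences from unstimulated cells were -0.05 ± 0.07 with FA, -0.14 ± 0.07 with LPS and -0.14 ± 0.07 with FA+LPS.

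Elovl5, the elongase of polyunsaturated chains, was also lower in both groups given LPS. Its log2 signal (ILMN_2652757) was 10.87, 10.40 and 10.48 in unstimulated experiments 1, 3 and 4. With FA it was 10.59, 10.18, 10.35 and 10.31 in experiments 1 to 4. With LPS it was 9.80, 9.27, 9.12 and 8.98, and with FA+LPS 10.12, 9.66, 9.57 and 9.48. Arrays with LPS lay below all arrays without it, and experiment 1 was the highest in each group. Elovl5 fell by 1.29 ± 0.19 with LPS (2.45-fold, limma adjusted p = 0.000177), by 0.88 ± 0.19 with FA+LPS against unstimulated cells (limma adjusted p = 0.00477) and by 0.65 ± 0.18 with FA+LPS against FA (limma adjusted p = 0.0182, 4 of 4 experiments). With median scaling none of the 3 calls was made, the differences being -0.99 (adjusted p = 0.141), -0.52 (0.589) and -0.12 (0.910). The last call was also lost without FA replicate 1 (adjusted p = 0.0620), without FA+LPS replicate 4 (0.0574) and without FA+LPS replicate 3 (0.0534). FA alone measured -0.22 ± 0.19 (95% interval -0.63 to 0.18, limma adjusted p = 1.00). Within slides 1 and 3 the LPS difference was -1.06 and -1.32.

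In LPS-treated cells Elovl5 was higher where fatty acid had been given, by 0.32, 0.39, 0.45 and 0.50 in experiments 1 to 4. The groups overlapped, experiment 1 being the highest in both. Without the block the difference of 0.41 ± 0.18 was not called (limma adjusted p = 0.513), and with experiment as a block it was called (0.41 ± 0.08, limma adjusted p = 0.0268). It was the only probe of the 13 called in that blocked comparison, in which 428 of all probes were called, against 126 without the block. The interaction was 0.64 ± 0.26 (limma adjusted p = 1.00).

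Elovl1, the elongase of saturated and monounsaturated very long chains, had 4 probes that disagreed. ILMN_3143506 fell by 0.55 ± 0.15 with LPS (limma adjusted p = 0.0150, or 0.0768 without Unstim replicate 4), and with median scaling the difference was -0.19 (adjusted p = 0.882). It measured 10.94, 10.99 and 11.15 in unstimulated experiments 1, 3 and 4 and 10.13, 10.57, 10.47 and 10.75 with LPS. Its FA values of 11.12, 11.01, 11.17 and 11.05 overlapped the unstimulated ones, and its FA+LPS values were 10.34, 10.88, 10.56 and 10.91. All arrays with LPS lay below all arrays without it, and the LPS and FA+LPS groups overlapped. FA+LPS against unstimulated cells gave -0.35 ± 0.15 (limma adjusted p = 0.138, or 0.0373 with experiment as a block, a call not made when Unstim replicate 4 was also left out) and against FA -0.41 ± 0.13 (limma adjusted p = 0.0512, or 0.0130 with the block). With median scaling both turned, to 0.05 and 0.17. The probe ILMN_2723491 measured -0.14 ± 0.10 with LPS and was not called in any comparison.

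The other Elovl1 probes separated experiment 4 from the rest. ILMN_1224780 read 9.92, 9.97 and 9.98 in unstimulated experiments 1, 3 and 4. With FA it read 9.99, 10.14, 10.14 and 9.11 in experiments 1 to 4, with LPS 9.40, 9.82, 9.56 and 8.37, and with FA+LPS 9.11, 10.01, 9.96 and 8.30. ILMN_2771824 did likewise, with 7.53, 7.39 and 7.26 on the treated arrays of experiment 4, against 7.98 to 8.48 on all others. Unstim replicate 4, labelled with the same experiment, was not low on either probe (9.98 and 8.24), nor were the treated arrays of experiment 4 on the first pair of probes. Neither probe was called without a block, and with experiment as a block ILMN_1224780 was called with LPS (-0.83, limma adjusted p = 0.0151) and with FA+LPS against unstimulated cells (-0.78, limma adjusted p = 0.0258). When Unstim replicate 4 was also left out, neither of these 2 calls was made, and FA+LPS against FA was called instead (-0.50, limma adjusted p = 0.0139), a difference that was 0.0024 with median scaling.

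Elovl6, which extends saturated and monounsaturated chains of palmitate length, was dim, with 11 of 15 arrays above background. It measured 6.49, 6.42 and 6.30 in unstimulated experiments 1, 3 and 4 and 6.61, 6.27, 6.26 and 6.16 with FA in experiments 1 to 4. With LPS it measured 6.11, 6.10, 5.91 and 5.85, and with FA+LPS 6.35, 6.05, 6.02 and 5.85, in both groups with 2 of 4 arrays above background. LPS arrays lay below all unstimulated and all FA arrays. Elovl6 fell by 0.42 ± 0.12 with LPS (limma adjusted p = 0.0282), a call lost without Unstim replicate 1 (adjusted p = 0.115), Unstim replicate 3 (0.0849), LPS replicate 3 (0.0690) or LPS replicate 4 (0.0768), or with median scaling (0.0709). FA+LPS against unstimulated cells gave -0.34 ± 0.12 (limma adjusted p = 0.0855, or 0.00511 with experiment as a block) and against FA -0.26 ± 0.11 (limma adjusted p = 0.162, or 0.0153 with the block, and -0.14 with median scaling).

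Acly, the enzyme that makes cytosolic acetyl-CoA from citrate, measured lower with LPS in 3 of 3 experiments without passing the test. It measured 11.12, 10.80 and 10.80 in unstimulated experiments 1, 3 and 4 and 11.24, 10.73, 10.85 and 11.02 with FA in experiments 1 to 4. With LPS it measured 10.68, 10.13, 10.10 and 10.22, and with FA+LPS 11.25, 10.54, 10.23 and 10.39. LPS arrays lay below all unstimulated arrays, while FA+LPS spanned both. The LPS difference of -0.62 ± 0.21 missed the threshold (limma adjusted p = 0.0570) and was called with experiment as a block (-0.57, adjusted p = 0.00227) or slide as a block (-0.59, adjusted p = 0.00396), while median scaling gave -0.29 (adjusted p = 0.819). FA+LPS minus FA was -0.36 ± 0.20 (limma adjusted p = 0.285, or 0.0248 with the experiment block), and turned to 0.20 with median scaling. FA+LPS minus LPS was 0.32 ± 0.20 (limma adjusted p = 0.796), higher in 4 of 4 experiments by 0.13 to 0.57. FA alone measured 0.06 ± 0.21.

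Srebf1, the gene for SREBP-1, was not called in any comparison or alternative. It measured 6.54, 6.67 and 6.40 in unstimulated experiments 1, 3 and 4 and 6.31, 6.43, 6.59 and 6.48 with FA in experiments 1 to 4. With LPS it measured 6.71, 6.45, 6.54 and 6.35, and with FA+LPS 6.68, 6.36, 6.43 and 6.25, so that all 4 groups overlapped. Its differences from unstimulated cells were -0.08 ± 0.11 with FA (95% interval -0.31 to 0.15), -0.02 ± 0.11 with LPS (95% interval -0.25 to 0.21) and -0.10 ± 0.11 with FA+LPS (95% interval -0.34 to 0.13). The signal was above background on all 15 arrays, by 0.09 to 0.94 log2 units. A fall larger than that distance could not have been read. This transcript level says nothing of SREBP-1 processing, which arrays do not read.

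Counted together, 1 of the 13 tested probes was called with FA (Scd1), where 0.00413% of all probes were. With LPS 6 were lower and 0 higher, against 10.2% lower and 7.68% higher of all 24195 probes. With FA+LPS against unstimulated cells 3 were lower, against 8.50% of all, and against FA 2 were lower, against 9.02% of all. Between FA+LPS and LPS 0 were called by limma without a block (2 at an unadjusted p below 0.05, Fads1 and Elovl5), against 0.521% of all probes. At that unadjusted level were 2035 of all 24195 probes. For the interaction 1 was called higher, against 0.0124% of all. Read by overlap, 4 of the 13 lay below unstimulated cells on every FA array, against 2.51% of all probes, and 1, the Elovl1 probe ILMN_2723491, lay above them, against 2.14%. On every LPS array 10 lay below, against 14.5%. For FA+LPS the groups did not overlap for 5 probes, all lower, against unstimulated cells, where 13.0% of all probes did so, and for 4 lower probes against FA, where 9.86% did. The median difference of the 13 was -0.11 with FA and -0.55 with LPS, where the medians over all probes were -0.0022 and -0.0073. The comparisons share arrays, so these counts are not separate evidence. With median scaling 1 of the 13 was called with LPS and 1 with FA+LPS against unstimulated cells, Scd1 in both, and 0 against FA, where the median turned from -0.26 to 0.08. That scaling also moved the share of higher probes among all probes called, from 42.9% to 63.4% with LPS, from 42.6% to 67.2% with FA+LPS against unstimulated cells, from 44.5% to 76.9% against FA and from 50% to 20% against LPS. With experiment as a block 7 of the 13 were called with FA+LPS against unstimulated cells and 5 against FA. The block also called more of all 24195 probes, 4671 and 5035 against 3585 and 3932 without it.

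**Figure D3:**
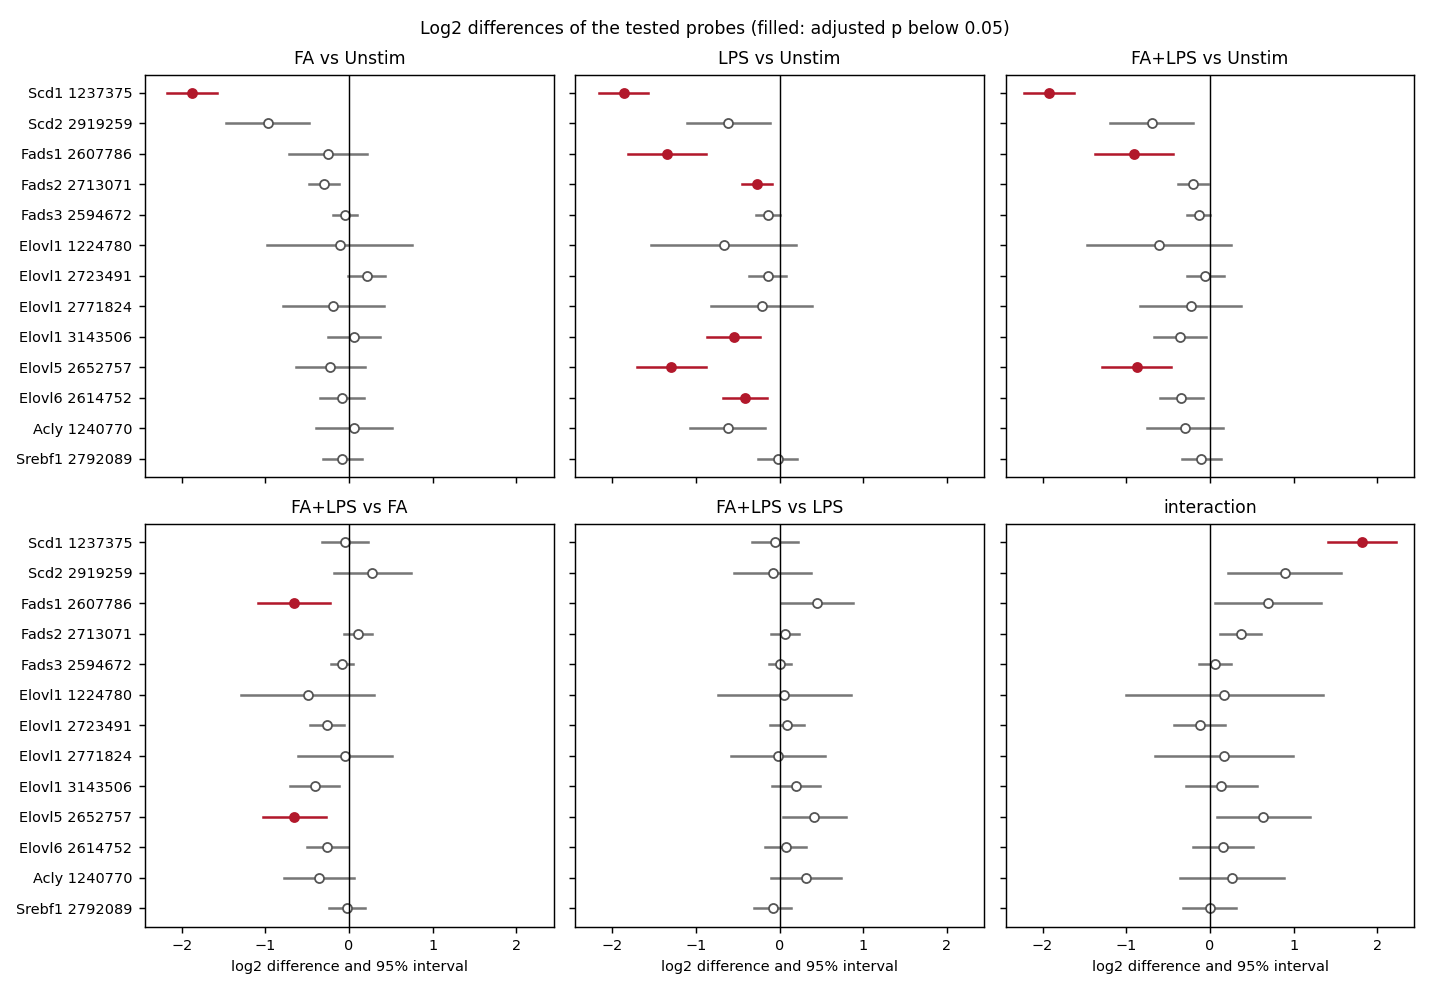
Log2 differences (x axis) with 95% intervals of the 13 tested probes (y axis, gene and probe number) in the 6 comparisons, filled where the limma adjusted p is below 0.05. With LPS 6 probes are filled on the left of 0, with FA only Scd1 at -1.88, and in the interaction only Scd1 at 1.82.

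The enzymes that work with the desaturases and elongases were counted from lists of partner genes, each gene by its brightest probe. Over all genes 12.8% were lower with LPS, 10.5% with FA+LPS against unstimulated cells and 11.1% against FA, and the counts of 1 in these lists lie near those shares. Of 6 electron carriers and paralogs of the desaturases, 1 was lower with LPS: Cyb5b, an outer mitochondrial cytochrome b5, fell by 0.95 ± 0.22 (limma adjusted p = 0.00617). Of 8 elongation partners and paralogs, 2 were lower with LPS, the dehydratases Hacd1 (-0.85 ± 0.21) and Hacd4 (-0.44 ± 0.11, limma adjusted p = 0.00862). Hacd4 was also the 1 called gene of that list with FA+LPS, against unstimulated cells (-0.55 ± 0.11) and against FA (-0.48 ± 0.10). Of 8 genes for acetyl-CoA and NADPH supply and fatty acid synthesis, 3 were lower with LPS. They were Idh1, a source of cytosolic NADPH (-2.36 ± 0.22), Aacs, an acetoacetyl-CoA synthetase (-0.82 ± 0.17), and Acss2, which activates acetate (-0.73 ± 0.18). Idh1 and Aacs were also the 2 lower with FA+LPS, against unstimulated cells (-1.77 and -0.62) and against FA (-1.68 and -0.50). Slide as a block ended both Aacs calls with FA+LPS (adjusted p = 0.0841 and 0.0727), and median scaling left -0.38 and -0.09, also not called.

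Among 15 genes of SREBP processing and its transcriptional control, 1 rose and 4 fell with LPS. Mlx, the partner of the glucose-responsive factor ChREBP, rose by 0.21 ± 0.06. The phosphatidate phosphatase and SREBP modulator Lpin1 fell by 1.75 ± 0.11, the ubiquitin ligase subunit Fbxw7 by 1.15 ± 0.15, the liver X receptor gene Nr1h3 by 1.13 ± 0.12 (limma adjusted p = 1.02e-05) and Mid1ip1, which promotes acetyl-CoA carboxylase assembly, by 0.77 ± 0.20. The same 5 genes were called the same way with FA+LPS against unstimulated cells and against FA. The Mlx calls were lost with slide as a block with LPS (adjusted p = 0.0544) and with FA+LPS against unstimulated cells (0.115), the second also with experiment as a block (0.0708). Leaving out Unstim replicate 4 in that block ended both (0.148 and 0.263), as did median scaling (0.344 and 0.391), and a normexp offset of 16 ended the second (0.103). Against FA, Mlx was lost with that offset (0.0918) and with median scaling (0.224). The slide block ended the Mid1ip1 call against FA (adjusted p = 0.0662), and median scaling left -0.18, not called. Among the genes of this list not called with LPS were Scap, the SREBP escort (-0.26 ± 0.16), Insig1 (-0.39 ± 0.31) and Srebf2, which encodes SREBP-2 (-0.17 ± 0.13). Over the 4 lists, 37 genes in all, 10 were lower with LPS and 1 higher, where 12.8% of 12984 genes were lower and 8.62% higher. With median scaling the desaturase and elongation partner lists had 0 genes lower with LPS, the supply list 1 (Idh1) and the SREBP list 2 (Lpin1 and Fbxw7). With FA+LPS it left Idh1, Lpin1 and Fbxw7 lower against unstimulated cells, and Idh1 and Lpin1 against FA. With FA+LPS 7 were lower and 1 higher both against unstimulated cells and against FA, where 10.5% and 11.1% of all genes were lower and 7.32% and 8.08% higher. With FA alone 0 of the 37 were called by limma, where 0.00770% of all genes were, and 2 had an unadjusted p below 0.05: Mid1ip1 (-0.66 ± 0.20) and Acss2 (-0.52 ± 0.18). Of all 12984 genes, fitted by 1 probe each, 374 had such a p. Between FA+LPS and LPS 0 of the 37 were called by limma, where 0.647% of all genes were, and 4 had an unadjusted p below 0.05: Cyb5b (0.59), Hacd1 (0.43), Idh1 (0.59) and Mid1ip1 (-0.51). Of all 12984 genes 1271 had such a p, a share near that of the 37. For the interaction 0 were called by limma, where 0.0308% of all genes were, and 3 had an unadjusted p below 0.05: Cyb5b, Idh1 and Acss2. Of all 24195 probes 1064 had such a p.

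Sterol synthesis genes, targets of the related factor SREBP-2, were read beside them. With LPS 8 of 15 fell and 0 rose, with a median of -0.39, where 12.8% of all genes were lower. All 15 differences were below 0, also with median scaling, which called 1 of them, Sc5d. The 3 lowest were Cyp51 (-1.18 ± 0.30), Msmo1 (-1.04 ± 0.22) and Fdps (-1.03 ± 0.28), for enzymes of the lanosterol and isoprenoid steps. In LPS-treated cells given fatty acid, all 15 differences from LPS alone were above 0, with a median of 0.46 where the median over all genes was 0.01. By the test 1 of them was higher, Hsd17b7 (1.27 ± 0.20, limma adjusted p = 0.00942), where 0.354% of all genes were, and 10 had an unadjusted p below 0.05. At that unadjusted level were 1271 of all 12984 genes, fitted by 1 probe each. With median scaling Hsd17b7 measured 1.38 and was not called (adjusted p = 0.357). With experiment as a block 6 of the 15 were called higher and 0 lower, where 428 of all 24195 probes were called in either direction. All 15 differences stayed above 0 under each of the 7 alternatives run on the lists, chosen after seeing the data. With FA alone 0 of the 15 were called and 0 had an unadjusted p below 0.05. For the interaction 0 were called by limma, 9 had an unadjusted p below 0.05, and the median was 0.61, while with experiment as a block 1 was called. Of all 24195 probes 1064 had an unadjusted p below 0.05 for the interaction. Against unstimulated cells FA+LPS left 1 lower, Sc5d (-0.29 ± 0.06), and against FA 1 was higher, Pmvk (0.70 ± 0.14, or 0.83 and not called with median scaling, adjusted p = 0.0526). Among the desaturases and elongases no difference between FA+LPS and LPS was called without a block. It was 0.44 for Fads1, 0.41 for Elovl5 and -0.06 for Scd1, which was near background in both groups. For the rest it was -0.08 for Scd2, 0.07 for Fads2, 0.0046 for Fads3, 0.08 for Elovl6 and -0.02 to 0.20 for the Elovl1 probes.

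**Figure D4:**
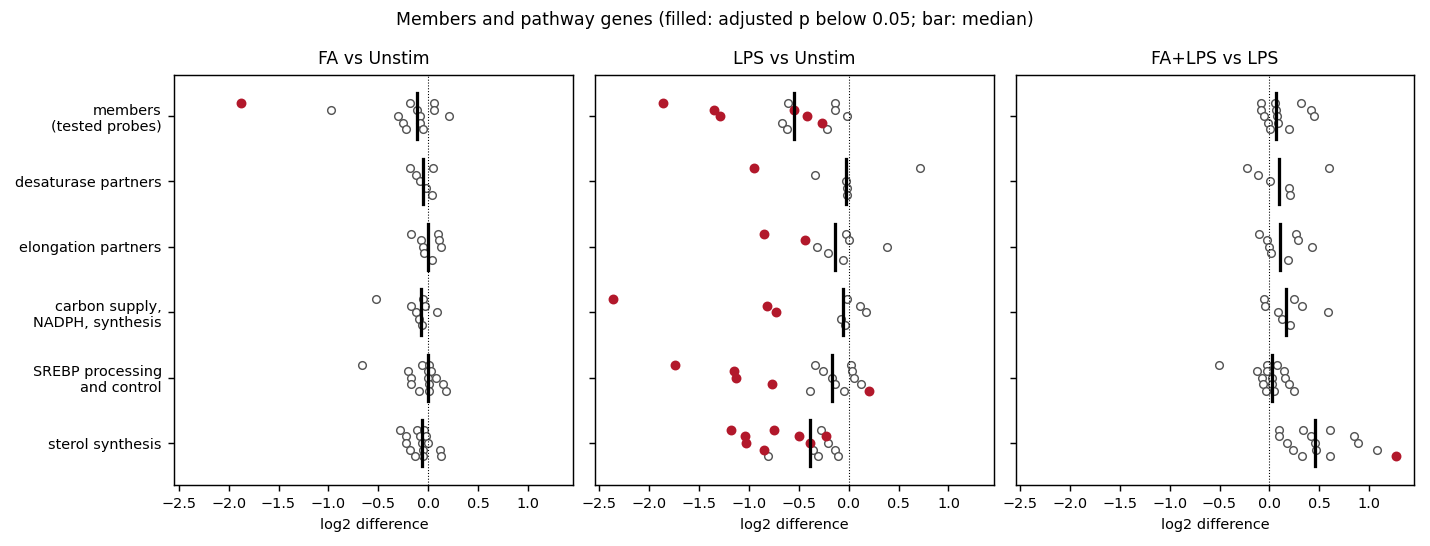
Log2 differences (x axis) of the 13 tested probes and of the genes of 5 partner lists (y axis) in 3 comparisons, 1 point per probe or gene, filled where the adjusted p is below 0.05, bars for medians. With LPS the medians of the first and last rows are -0.55 and -0.39, and in FA+LPS against LPS the sterol synthesis points all lie above 0 with a median of 0.46.

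The genes whose mean-centred values over the 15 arrays lay closest to those of Scd1, by root mean square difference among 12984 genes, were Rpl31 (0.49), Mid1ip1 (0.51), Scd2 (0.51), Gadd45a (0.55) and S100a4 (0.55). None was close, set against the spread of Scd1 itself (SD 0.77). Their FA differences were -0.49, -0.66, -0.97, -0.63 and -0.31, all smaller than that of Scd1, and none was called. For Fads1, whose SD was 0.59, the closest were Tnfrsf21 (0.17), Pigp (0.19), Itgb2 (0.21), Rgs10 (0.21) and Lcp1 (0.21). These 5 differed from unstimulated cells by -1.33 to -0.996 with LPS and lay higher with FA+LPS than with LPS by 0.34 to 0.46. They were picked for likeness to Fads1 over these same arrays, so their shared differences are not separate evidence.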

How the data were processed

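RNA of 15 macrophage cultures was read on Illumina mouse bead arrays, 1 array per sample. Log2 signals of 45281 probes before normalization were deposited by the authors, with a normalized log2 value table for 25784 of them, which equals quantile normalization of the first over the same probes to within 0.00095. No processing tool or genome build is given in the sources used here. Gene names came from the platform annotation: 21476 probes had 1 symbol, 10 had several and 4298 had none.

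The deposited log2 signals were returned to the linear scale, background-corrected (limma 3.58.1, normexp, offset 50) and quantile-normalized in R 4.3.3. The planned use of detection p-values gave way to the 95th percentile of the 19497 probes outside the value table, since the files used hold none. Probes of the value table above that level on at least 3 arrays were tested with limma on the 4 groups, 2-sided, with Benjamini-Hochberg adjustment over all 24195 probes, and called at an adjusted p below 0.05. The linear model had 11 residual degrees of freedom, and precision is limited by the number of arrays. The scripts were tested on simulated data.

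The members and lists were chosen with earlier results of these data known. All member probes are described. Of each partner list up to 3 called genes with the largest change are named, with genes named by role or behind a count of 5 or fewer, and the 5 genes most like Scd1 and Fads1 by root mean square difference. Elovl1 and Fads2 have several probes, each tested alone, and partner genes were read by their brightest probe. The labels number the experiments 1 to 4, and same-numbered arrays deviated together at a median correlation of 0.22 (-0.01 to 0.77, 21 pairs), against -0.07 for other pairs. Experiment as a block, slide as a block, other scalings and filters, the authors' table and leaving out each array were run as alternatives. The block without Unstim replicate 4 and the alternatives on the partner lists were added after seeing the data.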

Additional observations from a re-analysis of the deposited data

Results flagged for a closer look

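In the FA group the Elovl1 probe ILMN_1224780 read 9.11 in experiment 4, against 9.99 to 10.14 in the other 3 experiments. The gap was 0.853 of the group's range, past Dixon's critical value for 4 samples. It was the only one of 42 groups of arrays tested, and chance marks about 1 group in 20. The same probe was also low with LPS and with FA+LPS in experiment 4 (8.37 and 8.30).

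The fatty acid effect on Scd1 differed between cells with and without LPS by 1.82 on the log2 scale (limma adjusted p = 0.00290). Without LPS it was -1.88 and with LPS -0.06. The normalized distance to background averaged 0.59 on the 12 treated arrays and 2.48 in unstimulated cells. The separate FA and LPS differences sum to -3.74, so a fall of that size could not have been read. What part this has in the interaction was not tested.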

How the results depend on the processing

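Scd1 kept its calls with FA, LPS and FA+LPS against unstimulated cells in all 25 alternatives, and its interaction in 24. No difference called in the main setting changed sign. Of those called only in some alternatives, Acly and 3 Elovl1 probes turned to above 0 with median scaling in FA+LPS against FA, and Acly and ILMN_3143506 also against unstimulated cells. With experiment as a block (replicate block), the 13 probes gave 7 calls with FA+LPS against unstimulated cells, 5 against FA and 1 against LPS, where 3, 2 and 0 were called without it. Leaving out Unstim replicate 4 as well gave 5, 6 and 1. The blocked calls with FA and for the interaction were Scd1 alone, as without the block, and with LPS the block gave 9 calls and 7 without Unstim replicate 4. Median scaling gave 1 call with LPS, 1 with FA+LPS against unstimulated cells, 0 against FA and 0 for the interaction, and the cause was not tested. It called 1486 of all probes with LPS against 4334, 1173 with FA+LPS against unstimulated cells against 3585, 1430 against FA against 3932, 10 against LPS against 126, and 0 for the interaction against 6. Over all 24195 probes the block called 5419 with LPS, 4671 with FA+LPS against unstimulated cells, 5035 against FA and 428 against LPS. Without Unstim replicate 4 the block called 4756 with LPS, 3937 with FA+LPS against unstimulated cells and 5234 against FA. For the interaction the block called 20, slide as a block called 1 and the block without Unstim replicate 4 called 3. Leaving out 1 array gave 4 to 7 calls with LPS, 3 to 7 with FA+LPS against unstimulated cells (7 without FA+LPS replicate 1), 0 to 4 against FA (0 without FA replicate 1 or FA+LPS replicate 3, 4 without FA+LPS replicate 1), 1 to 1 with FA and for the interaction, and 0 to 0 against LPS. The mean distance of Scd1 to background on treated arrays was 0.59, and 1.02 with a normexp offset of 16. In unstimulated cells it was 2.48, and 3.39 with that offset. Closeness to background limits the readings of Scd1 in treated cells, Scd2, Fads2, Fads3, Elovl6 and Srebf1.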
